A study of Mus musculus with 6 samples.

Results

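Bone-forming cells and the supporting stroma of the marrow were followed through 10 genes in bulk bone marrow RNA. The genes, chosen by symbol from a table of 49315 genes, were Col1a1, Col1a2, Bglap, Ibsp, Sparc, Spp1, Alpl, Runx2, Lepr and Kitl. The KO group held 3 libraries from mice of the miR-181a2b2-/- strain (replicates 2, 3 and 4), which lack the locus of the microRNAs miR-181a-2 and miR-181b-2. The WT group held 3 libraries from miR-181a2b2flox/flox mice (replicates 1, 3 and 4), in which the floxed locus is not deleted. Mice of all 6 libraries were fed the HFSC diet and underwent hindlimb ischemia, an interruption of blood flow to a leg. Age and sex are not stated in the labels, and no unfed or uninjured group was analysed. Bone marrow is the labelled source, although the labels' extraction text speaks of white adipose tissue. The labels do not tie each library to its own animal, and the p-values therefore cover only differences among these samples, which may be technical.

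Osteoblasts lay down type I collagen and other matrix proteins on bone surfaces and then mineralise that matrix. The leptin receptor marks perivascular reticular cells of the marrow, which include precursors of osteoblasts and adipocytes and which, with endothelium, supply stem cell factor and CXCL12 to blood-forming cells. MicroRNAs of the miR-181 family pair through their seed, the bases near the 5′ end, with matching sites in 3′ UTRs and lower the level or translation of those messenger RNAs.

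The mature 5p microRNAs of the deleted locus are shown because their seeds, in capitals (bases 2 to 8), are the same and define the sites searched for in the 10 genes. They lie on the plus strand at chr2:38852741-38852763 for miR-181a-5p and chr2:38853845-38853868 for miR-181b-5p (RefSeq, GRCm38.p6).
mmu-miR-181a-5p: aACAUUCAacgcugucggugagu
mmu-miR-181b-5p: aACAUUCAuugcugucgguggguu
Of the 10 genes, 2 held a match of at least 7 bases in their longest annotated 3′ UTR, against 21.0% of 21024 mouse genes (4416 genes). Spp1 had a match to bases 2 to 7 followed by A, at base 425 of a 3′ UTR of 432 bases (chr5:104441043-104441049, plus strand, GRCm38). Kitl had a match to bases 2 to 8 at base 924 of 4435 bases (chr10:100096905-100096911, plus strand, GRCm38) and 1 further match of 6 bases. In both sequences the capitals mark the match.
Spp1 site: gaataaatcttgtaacGAATGTAa
Kitl site: gatatgggaggaatgcTGAATGTgca
The 3′ UTRs of the other 8 genes held no match of 6 or more bases to this seed. Sites of miR-181a-2-3p and miR-181b-2-3p, mature microRNAs of the locus with other seeds, were not searched for. A match is a description of the sequence only.

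A second set is shown because RUNX2, the product of one of the 10 genes, is a transcription factor of osteoblasts that binds the motif AACCACA. The motif was searched on both strands in the 250 bases before each start in RefSeq's promoter table (GRCm38.p6), where 9 of the 10 genes have an entry. It occurred in 4.40% of all 32851 entries (1444 entries). Among the 12 entries of those 9 genes it occurred before a start of Spp1, 129 bases upstream, and before the start of Runx2 itself, 81 bases upstream. The other entry of Spp1 held 0 matches. The windows are chr5:104434972-104434998 (plus strand, Spp1) and chr17:44814692-44814718 (minus strand, Runx2). The Runx2 window lies within an exon of GENCODE's longer Runx2 gene model. The capitals mark the motif.
Spp1 promoter window: ttttttttttAACCACAaaaccagagg
Runx2 promoter window: tgaggtcacaAACCACAtgattctgtc

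Total counts lay between 33861440 and 40359093 per library. In CPM, counts scaled to a common library total, the floor of 3 counts that a count of 0 allows lay between 0.0743 and 0.0886. Floors cover counting error only. The hairpins of the deleted locus had 0 counts in all 6 libraries, and poly(A) selected libraries capture such precursors poorly, so these counts do not check the genotype labels. KO replicate 4 had the highest level of 23.6% and the lowest level of 22.2% of the 16956 genes tested. Over all genes 417 were called, and 32, 33 and 37 without KO replicate 4, WT replicate 1 and WT replicate 4. Xist, expressed from an inactive X chromosome, was above 1 CPM in 1 of 3 KO and 2 of 3 WT libraries.

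Presence of stroma was checked with the markers Cxcl12, Foxc1 and Ebf3. For osteoblasts and osteocytes the markers were Sp7, Ifitm5 and Dmp1. Cxcl12, the chemokine of reticular stroma, lay between 253 and 333 CPM in KO and between 126 and 263 CPM in WT. Foxc1 was much lower, between 1.75 and 2.19 CPM in KO and between 1.30 and 1.735 CPM in WT. Ebf3 lay between 3.66 and 4.22 CPM in KO and between 2.80 and 6.58 CPM in WT. Sp7, an obligatory transcription factor of osteoblasts, lay between 0.335 and 0.747 CPM in KO and between 0.417 and 0.781 CPM in WT. Ifitm5, a membrane protein of mineralising osteoblasts, lay between 0.267 and 0.694 CPM in KO and between 0.347 and 0.549 CPM in WT. Dmp1, a matrix protein of osteocytes, lay between 0.213 and 0.594 CPM in KO and between 0.358 and 0.405 CPM in WT. These 3 osteoblast markers were under 1 CPM but above the floor in every library. Levels of other genes did not follow this split, since Prrx1, a transcription factor of stroma, lay between 1.49 and 1.89 CPM in KO and between 0.491 and 1.26 CPM in WT, and Phospho1, a phosphatase of mineralisation, between 13.0 and 17.6 CPM in KO and between 12.3 and 17.9 CPM in WT. Counts of the 10 genes made up between 0.0204% and 0.0267% of a KO library and between 0.0163% and 0.0263% of a WT library.

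None of the 10 genes passed the threshold between KO and WT marrow. In edgeR 0 of 10 had an adjusted p under 0.05, against 2.46% of all 16956 genes tested (159 higher and 258 lower). At an unadjusted p under 0.05, Lepr was higher and Runx2 was lower, against 1980 higher and 2077 lower genes over all. DESeq2 called 2 of the 10 (Ibsp and Lepr), against 11.4% of the 13864 genes that its own filter left. limma with sample quality weights called 0 of the 10, against 4.64% of all genes. Without a filter on low counts edgeR called 2 of the 10 (Runx2 and Lepr), against 4.91% of 30403 genes. Lepr and Runx2 were also the 2 of 10 genes whose KO and WT libraries did not overlap, as was the case for 29.1% of all genes tested. The median log2 fold change (KO minus WT) was 0.12 over the 10 genes and -0.01 over all genes. The median of the 10 turned to -0.14 without WT replicate 3 and to -0.06 with the Xist covariate, and it was 0.57 without WT replicate 1, 0.31 without KO replicate 2, 0.22 without KO replicate 3, 0.02 without KO replicate 4 and 0.27 without WT replicate 4. In bulk RNA, fewer cells of a type and less RNA per cell cannot be told apart.

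**Figure D1:**
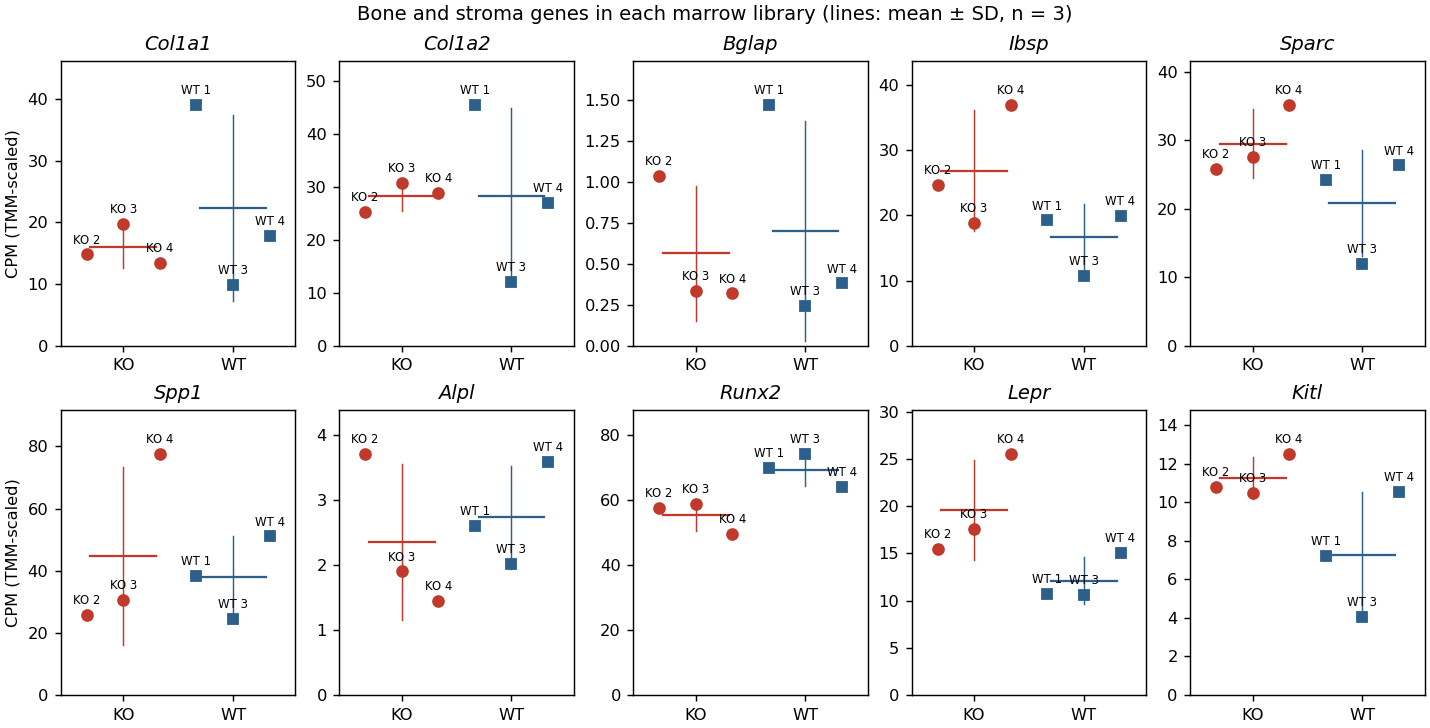
Level of each of the 10 genes in every library, in CPM on linear axes that start at 0, with KO libraries as red circles on the left and WT libraries as blue squares on the right; horizontal lines are means and vertical lines SD (n = 3 each). KO and WT points are fully separate for Runx2 (KO lower) and Lepr (KO higher) and overlap for the other 8 genes.

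Type I collagen, the main protein of bone matrix, is a trimer of chains encoded by Col1a1 and Col1a2. Col1a1 (ENSMUSG00000001506, chr11:94936224-94953042, plus strand) had 14.8, 19.8 and 13.4 CPM in KO replicates 2, 3 and 4, against 39.1, 9.94 and 17.8 CPM in WT replicates 1, 3 and 4. WT replicate 1 was the highest and WT replicate 3 the lowest of all 6, so that the KO values lay inside the WT range. The means were 16.0 ± 3.36 CPM in KO and 22.3 ± 15.1 CPM in WT (SD, n = 3 each). KO minus WT, the log2 fold change was -0.48 ± 0.53 (SE; 95% interval -1.84 to 0.89; edgeR adjusted p = 0.640), and it was 0.20 without WT replicate 1.

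Col1a2 (ENSMUSG00000029661, chr6:4504814-4541544, plus strand) had 25.3, 30.8 and 28.9 CPM in KO, against 45.5, 12.1 and 27.0 CPM in WT. The same WT libraries were the extremes. The KO libraries lay within 1.22 times of each other and the WT libraries within 3.75 times. Its means were 28.3 ± 2.79 CPM in KO and 28.2 ± 16.7 CPM in WT (SD, n = 3 each), with a log2 fold change of 0.01 ± 0.48 (SE) and a 95% interval from -1.22 to 1.24 (edgeR adjusted p = 0.995). The fold change ranged from -0.36 without WT replicate 3 to 0.53 without WT replicate 1.

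Counts of Col1a1 relative to Col1a2 were compared within each library, a measure chosen after the values were seen. The ratio was 0.586, 0.643 and 0.464 in KO replicates 2, 3 and 4, against 0.860, 0.820 and 0.661 in WT replicates 1, 3 and 4. All KO ratios were below all WT ratios, with WT replicate 4 nearest to KO replicate 3. The means were 0.564 ± 0.0915 in KO and 0.780 ± 0.105 in WT (SD, n = 3 each). No test is given, since the ratio was chosen for this separation.

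Bglap encodes osteocalcin, a small calcium-binding protein secreted by mature osteoblasts (ENSMUSG00000074483, chr3:88383501-88384464, minus strand). It was near the limit of these libraries, with 35, 12 and 12 counts in KO replicates 2, 3 and 4, against 51, 10 and 16 counts in WT replicates 1, 3 and 4. These counts correspond to 1.04, 0.335 and 0.320 CPM in KO, against 1.47, 0.245 and 0.382 CPM in WT. A single library of each group, KO replicate 2 and WT replicate 1, held most of the counts. Its log2 fold change of -0.29 ± 0.75 (SE) had a 95% interval from -2.04 to 1.46 (edgeR adjusted p = 0.849) and ranged from -1.05 without KO replicate 2 to 0.83 without WT replicate 1. Its near-identical neighbours had even fewer reads and were not tested. Bglap2 had 7, 5 and 5 counts in KO, against 24, 3 and 12 counts in WT. Bglap3 had 3, 3 and 3 counts in KO, against 4, 10 and 1 counts in WT. How the authors counted reads that match several of these copies is not stated in the labels, so the split between them is uncertain.

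Ibsp and Spp1 encode bone sialoprotein and osteopontin, acidic integrin-binding proteins of mineralised matrix, and lie near each other on chromosome 5. Ibsp (ENSMUSG00000029306, chr5:104299171-104311469, plus strand) had 24.7, 18.8 and 37.0 CPM in KO, against 19.2, 10.8 and 19.9 CPM in WT. KO replicate 3 fell within the WT range, and the other KO libraries lay above it. The means were 26.8 ± 9.26 CPM in KO and 16.6 ± 5.10 CPM in WT (SD, n = 3 each). Between the groups the log2 fold change was 0.69 ± 0.32 (SE; 95% interval -0.08 to 1.46; edgeR adjusted p = 0.251). DESeq2 called it higher (adjusted p = 0.0463).

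Spp1, which macrophages and osteoclasts also express (ENSMUSG00000029304, chr5:104435118-104441050, plus strand), had 25.8, 30.7 and 77.7 CPM in KO, against 38.3, 24.4 and 51.0 CPM in WT. KO replicate 4 was the highest of all 6, while KO replicates 2 and 3 were both below WT replicates 1 and 4. The means were 44.7 ± 28.7 CPM in KO and 37.9 ± 13.3 CPM in WT (SD, n = 3 each). A log2 fold change of 0.24 ± 0.54 (SE) had a 95% interval from -1.18 to 1.65 (edgeR adjusted p = 0.830), and it was -0.42 without KO replicate 4. An unclassified transcript, Gm42793, shares 309 exon bases with Spp1 on the same strand, and reads there cannot be told apart. Its counts were 3, 7 and 2 in KO, against 26, 30 and 60 in WT.

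Sparc encodes osteonectin, a collagen-binding glycoprotein made by osteoblasts, stroma, endothelium and megakaryocytes (ENSMUSG00000018593, chr11:55394500-55423183, minus strand). It had 25.7, 27.6 and 35.2 CPM in KO, against 24.2, 12.0 and 26.3 CPM in WT. KO replicate 2 lay just below WT replicate 4, so the groups overlapped. The means were 29.5 ± 5.01 CPM in KO and 20.8 ± 7.73 CPM in WT (SD, n = 3 each), with a log2 fold change of 0.50 ± 0.29 (SE), a 95% interval from -0.20 to 1.21 and an edgeR adjusted p = 0.347. Without WT replicate 3 the fold change was 0.22.

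Alpl, tissue-nonspecific alkaline phosphatase, releases the phosphate used for mineral and is also made by neutrophils and stroma (ENSMUSG00000028766, chr4:137741733-137796384, minus strand). It had 3.71, 1.90 and 1.44 CPM in KO, against 2.60, 2.01 and 3.58 CPM in WT. The KO libraries included both the highest and the lowest value. The means were 2.35 ± 1.20 CPM in KO and 2.73 ± 0.790 CPM in WT (SD, n = 3 each). A log2 fold change of -0.22 ± 0.36 (SE) had a 95% interval from -1.04 to 0.60 (edgeR adjusted p = 0.748). It was -0.71 without KO replicate 2 and 0.04 without KO replicate 4. The summed level of 12 skeletal muscle markers was 16.1, 10.8 and 10.2 CPM in KO, against 20.8, 13.6 and 21.9 CPM in WT, and was thus also highest in KO replicate 2 among KO libraries and in WT replicate 4 among WT libraries. Bglap shared the KO peak but not the WT peak, with 1.47 CPM in WT replicate 1 and 0.382 CPM in WT replicate 4. The part of skeletal muscle in the Alpl and Bglap values was not tested.

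Runx2, the transcription factor that commits precursors to the osteoblast lineage and that plasmacytoid dendritic cells also express, was the steadiest of the 10 genes (ENSMUSG00000039153, chr17:44495987-44814797, minus strand). It had 57.6, 58.8 and 49.8 CPM in KO, against 70.0, 74.4 and 64.1 CPM in WT. Every KO library was below every WT library. The means were 55.4 ± 4.89 CPM in KO and 69.5 ± 5.19 CPM in WT (SD, n = 3 each), a level in KO 0.797 times that in WT (95% interval 0.687 to 0.924). This log2 fold change of -0.33 ± 0.10 (SE) did not pass over all genes (edgeR unadjusted p = 0.00687, adjusted p = 0.0907), and it passed when low counts were not filtered out (adjusted p = 0.0383).

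Runx2 reads cannot be assigned to a cell type in bulk RNA, so markers of other marrow cells are given beside them. Markers of plasmacytoid dendritic cells (8 of 8 tested) included 0 past the threshold, with a median log2 fold change of -0.03. Their summed level lay between 362 and 408 CPM in KO and between 355 and 477 CPM in WT. Tcf4, the defining transcription factor of these cells, had 60.8, 53.9 and 58.4 CPM in KO, against 75.1, 69.6 and 66.0 CPM in WT (log2 fold change -0.28, edgeR adjusted p = 0.101). Siglech, a surface receptor of the same cells, differed by 0.01 on the log2 scale (adjusted p = 0.979). Neutrophil markers were higher in every KO library than in every WT library for 10 of 10 genes, against 2441 of all 16956 genes tested. Their summed levels lay between 63877 and 78102 CPM in KO and between 42886 and 54065 CPM in WT. Their part in the Runx2 difference was not tested. Runx2os1, an antisense transcript, overlaps 5.87% of the exon bases of Runx2 and had between 13 and 21 counts in KO and between 15 and 16 counts in WT.

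Lepr, the leptin receptor and marker of reticular stroma, was the gene with the largest ratio of difference to error among those with higher levels in KO (ENSMUSG00000057722, chr4:101717404-101815352, plus strand). It had 15.5, 17.6 and 25.6 CPM in KO, against 10.8, 10.6 and 15.0 CPM in WT. All KO values were above all WT values, KO replicate 2 and WT replicate 4 lying closest. The means were 19.6 ± 5.32 CPM in KO and 12.1 ± 2.52 CPM in WT (SD, n = 3 each), a level in KO 1.61 times that in WT (95% interval 1.16 to 2.25). At 0.69 ± 0.21 (SE) the log2 fold change did not pass (edgeR unadjusted p = 0.0102, adjusted p = 0.105), but DESeq2 called it (adjusted p = 0.0136), as did edgeR without a filter on low counts (adjusted p = 0.0446). It was 0.45 without KO replicate 4. Leptin receptor signals through JAK2 and STAT3. Jak2 had a log2 fold change of -0.13 and Stat3 of 0.29, with edgeR adjusted p = 0.351 and 0.193. Socs3, the feedback inhibitor, had 26.5, 63.2 and 84.2 CPM in KO, against 65.5, 72.3 and 42.0 CPM in WT (adjusted p = 0.967).

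Kitl encodes stem cell factor, the ligand of the receptor KIT on blood stem cells and mast cells (ENSMUSG00000019966, chr10:100015630-100100416, plus strand). It had 10.8, 10.5 and 12.5 CPM in KO, against 7.23, 4.03 and 10.5 CPM in WT. KO replicate 3 and WT replicate 4 were nearly equal, and the remaining KO libraries lay above the WT range. The means were 11.3 ± 1.10 CPM in KO and 7.27 ± 3.26 CPM in WT (SD, n = 3 each). For Kitl the log2 fold change was 0.63 ± 0.31 (SE; 95% interval -0.08 to 1.34; edgeR adjusted p = 0.255), and it was 0.34 without WT replicate 3. The receptor gene Kit had 83.3, 87.6 and 74.1 CPM in KO, against 94.7, 89.8 and 95.8 CPM in WT (log2 fold change -0.19, adjusted p = 0.218).

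**Figure D2:**
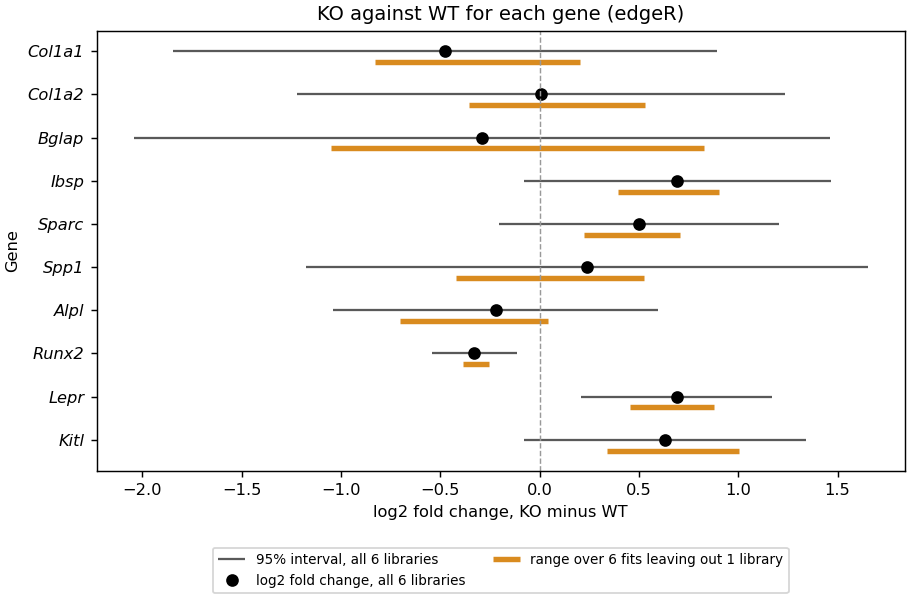
Log2 fold change, KO minus WT, of each gene (black points) with its 95% interval (grey lines), and the range over the 6 fits that each left out 1 library (orange bars). The intervals of Runx2 and Lepr exclude 0 before adjustment over all genes, and the orange bars of Col1a1, Col1a2, Bglap, Spp1 and Alpl cross 0.

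The 10 genes varied more between libraries of a group than most genes did. The SD of log2 CPM within groups had a median of 0.533 over the 10 genes, against 0.186 over all genes tested, and 9 of the 10 were above 0.186. It ranged from 0.120 for Runx2 to 1.08 for Bglap. Much of this lay in few libraries. WT replicate 3 was the lowest of the 6 for 8 of the 10 genes, all but Alpl and Runx2, whereas it was the lowest for 15.9% of all genes tested. The highest library was KO replicate 4 for Ibsp, Sparc, Spp1, Lepr and Kitl (23.6% of all genes), and WT replicate 1 for Col1a1, Col1a2 and Bglap (18.6% of all genes). Relative to the gene's mean over the 6 libraries, Bglap, Col1a1 and Col1a2 stood at 1.45, 1.17 and 0.79 on the log2 scale in WT replicate 1, where Lepr and Kitl stood at -0.49 and -0.27.

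**Figure D3:**
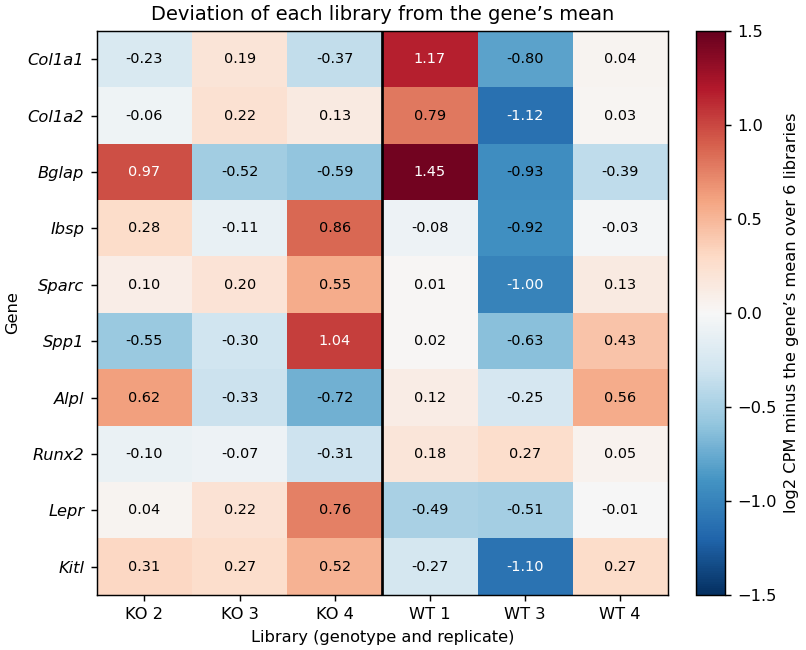
Deviation of each library from the gene's mean log2 CPM over the 6 libraries, for the 10 genes (rows) and the libraries (columns, KO left of the black line and WT right of it). WT replicate 3 is below the mean for 9 genes, and WT replicate 1 is above it for Col1a1, Col1a2 and Bglap and below it for Lepr and Kitl.

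Wider lists of the same compartments had the same low library. WT replicate 3 was the lowest for 11 of 21 tested osteoblast and bone matrix genes (52.4%) and for 11 of 20 genes of reticular stroma (55.0%). It was also the lowest for 6 of 10 endothelial genes and 7 of 16 genes of collagen processing, but for 0 of 10 osteoclast genes and 1 of 10 neutrophil genes. Summed over the 10 genes, the level was 205, 217 and 282 CPM in KO replicates 2, 3 and 4, against 258, 161 and 236 CPM in WT replicates 1, 3 and 4. Summed over 22 genes of reticular stroma it was 828, 754 and 907 CPM in KO, against 554, 528 and 783 CPM in WT.

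Patterns over the 6 libraries were compared by the root mean square difference of log2 CPM after removal of each gene's mean, over 11582 candidate genes. The genes nearest to Kitl were Fbln5 (0.111), an elastic fibre protein, Cyp1b1 (0.141), a cytochrome P450 enzyme, Ackr4 (0.159), a scavenging chemokine receptor, Sparc itself (0.162) and Islr (0.171). Fbln5 had 7.45, 6.48 and 9.26 CPM in KO, against 4.74, 2.80 and 8.30 CPM in WT. Nearest to Col1a1 were Col1a2 (0.297), the antibody segment Ighv14-3 (0.319), Cxcr5 (0.352), a chemokine receptor of follicular lymphocytes, and the T cell transcription factors Tcf7 (0.361) and Bcl11b (0.367). Cxcr5 had 3.53, 3.02 and 4.35 CPM in KO, against 8.59, 2.85 and 5.06 CPM in WT, so WT replicate 1 was highest there too.

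Levels were also compared between genes per kilobase of exon (FPKM, over the union of annotated exons). In KO marrow the order by mean level was Spp1 at 27.1 ± 17.4 FPKM, Ibsp at 13.0 ± 4.48, Sparc at 7.79 ± 1.32, Runx2 at 6.27 ± 0.553, Lepr at 2.78 ± 0.754, Col1a1 at 2.44 ± 0.511, Col1a2 at 2.28 ± 0.225, Kitl at 1.90 ± 0.186, Bglap at 0.914 ± 0.665 and Alpl at 0.583 ± 0.298 FPKM (SD, n = 3). In this order only Sparc and Runx2, Runx2 and Lepr, and Kitl and Bglap were neighbours whose libraries did not overlap. In WT marrow it was Spp1 at 23.0 ± 8.08 FPKM, Ibsp at 8.04 ± 2.47, Runx2 at 7.86 ± 0.587, Sparc at 5.50 ± 2.04, Col1a1 at 3.40 ± 2.30, Col1a2 at 2.27 ± 1.35, Lepr at 1.72 ± 0.357, Kitl at 1.23 ± 0.551, Bglap at 1.13 ± 1.09 and Alpl at 0.677 ± 0.196 FPKM (SD, n = 3). There only Spp1 and Ibsp, and Runx2 and Sparc, did not overlap. By the longest transcript instead of the exon union, the mean of Col1a2 over all 6 libraries was 5.28 instead of 2.27 FPKM, because its exon union (12426 bases) is longer than its longest transcript (5348 bases), and Col1a2 then stood above Col1a1. The same change put Sparc at 10.9 instead of 6.65 FPKM and Alpl at 1.01 instead of 0.630 FPKM (means over 6 libraries), and the WT order then began with Spp1, Runx2, Sparc and Ibsp.

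The surrounding genes were described by lists, whose members were picked with earlier results of these data known. Of 30 further osteoblast and bone matrix genes 21 were tested, and 0 rose and 0 fell (edgeR). At an unadjusted p under 0.05, 3 were higher and 0 lower, against 1980 higher and 2077 lower of all 16956 genes. DESeq2 called 2 (Bgn and Dcn, matrix proteoglycans), against 11.4% of the genes that its filter left. limma called 0, against 4.64% of all genes. The median log2 fold change of this list was 0.25, against -0.01 over all genes. The smallest p belonged to Phex, an endopeptidase of osteocytes that regulates phosphate, with 0.802, 0.838 and 1.12 CPM in KO, against 0.463, 0.196 and 0.406 CPM in WT. Its libraries did not overlap, and its log2 fold change of 1.38 ± 0.37 (SE) did not pass (edgeR adjusted p = 0.0767). Phex passed in edgeR when low counts were not filtered out (adjusted p = 0.0214). A further 9 genes of that list, including Sost, Mepe and Fgf23 of osteocytes, had too few counts to be tested.

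Of 22 genes of reticular stroma 20 were tested, and in edgeR Eng fell while 0 rose, against 2.46% of all genes called. Other fits called higher genes, namely Lum, Igfbp4 and Col6a1 in DESeq2, Lum and Igfbp4 without a filter on low counts, and Lum in limma. Eng, the TGF-beta coreceptor endoglin of stroma, endothelium and macrophages, had 23.8, 22.1 and 21.7 CPM in KO, against 32.5, 28.3 and 31.9 CPM in WT, with a log2 fold change of -0.46 ± 0.10 (SE, edgeR adjusted p = 0.0457). The other genes of this list lay mostly on the opposite side, and the list median was 0.41. Of the 20 genes 16 had positive values, against 8292 of all 16956 genes tested. These genes were not independent of each other, as WT replicate 3 was the lowest library for 11 of the 20. Cxcl12 had 261, 253 and 333 CPM in KO, against 140, 126 and 263 CPM in WT (log2 fold change 0.68 ± 0.29, adjusted p = 0.221). Lum, a collagen-binding proteoglycan, had 1.51, 1.06 and 1.52 CPM in KO, against 0.665, 0.147 and 0.358 CPM in WT (log2 fold change 1.83 ± 0.44, adjusted p = 0.0624). Igfbp4, a binding protein of insulin-like growth factors, had 218, 195 and 222 CPM in KO, against 153, 139 and 177 CPM in WT (log2 fold change 0.44 ± 0.11, adjusted p = 0.0667). The call of Eng was lost without KO replicate 3 (adjusted p = 0.0602), KO replicate 4 (0.170), WT replicate 1 (0.130), WT replicate 3 (0.0555) or WT replicate 4 (0.166), with log2 fold changes between -0.52 and -0.42. It was also lost with the Xist covariate (0.0718). Eng kept its call in DESeq2 (adjusted p = 0.00651), in limma (0.0353), in edgeR without a filter on low counts (0.00629) and without KO replicate 2 (0.0457). Without KO replicate 2 Col6a1 was called higher as well (1.11, adjusted p = 0.0352), and without KO replicate 3 Igfbp4 was (0.51, adjusted p = 0.0468). Cxcl12 was called higher without WT replicate 4 (1.08, edgeR adjusted p = 0.0285).

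Enzymes that modify, cleave or cross-link collagen (16 of 16 tested) included 1 that fell and 0 that rose, with a median log2 fold change of 0.23. The gene that fell was Mmp14, a membrane-bound collagenase and activator of other matrix proteases, with 7.54, 7.24 and 8.89 CPM in KO, against 12.8, 12.7 and 14.4 CPM in WT. The groups were well apart, and the log2 fold change was -0.75 ± 0.13 (SE, edgeR adjusted p = 0.0293). Its call was lost without KO replicate 4 (adjusted p = 0.0743), WT replicate 1 (0.0898), WT replicate 3 (0.0555) or WT replicate 4 (0.112), with log2 fold changes between -0.84 and -0.69 over the 4 fits, and with the Xist covariate (0.0549). Mmp14 kept its call in DESeq2 (adjusted p = 0.000206), in limma (0.0237) and in edgeR without a filter on low counts (0.000556). Pcolce, an enhancer of procollagen processing, had 5.55, 9.20 and 9.05 CPM in KO, against 4.16, 4.22 and 5.89 CPM in WT (log2 fold change 0.74 ± 0.23, edgeR adjusted p = 0.103). Pcolce was called higher in DESeq2 (adjusted p = 0.0207) and in edgeR without a filter on low counts (0.0155), but not in limma. Without KO replicate 2, edgeR called Pcolce (0.94, adjusted p = 0.0383) and P4ha1 (0.59, adjusted p = 0.0376) higher.

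Ligands, receptors and cofactors of the 10 genes (15 of 18 tested) included 0 past the threshold, with a median of 0.07. The smallest p belonged to Itgb5, an integrin subunit that binds osteopontin, with 21.4, 21.4 and 23.5 CPM in KO, against 17.8, 18.7 and 15.1 CPM in WT (log2 fold change 0.36 ± 0.11, edgeR adjusted p = 0.101). Tnfsf11, the osteoclast-inducing ligand RANKL, had 0.683, 1.01 and 1.76 CPM in KO, against 0.520, 0.344 and 0.549 CPM in WT (log2 fold change 1.29 ± 0.40, adjusted p = 0.101). Tnfsf11 passed in edgeR when low counts were not filtered out (adjusted p = 0.0204). Cbfb, the partner subunit of RUNX proteins, differed by 0.26 ± 0.08 on the log2 scale (edgeR adjusted p = 0.108), and DESeq2 called it higher (adjusted p = 0.04865). The KO libraries lay above all WT libraries for 4 of the 15 genes (Itgb5, Tnfsf11, Cbfb and Cd44, a receptor of osteopontin) and below them for 2 (Kit and Jak2), against 29.1% of all genes without overlap in either direction.

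**Figure D4:**
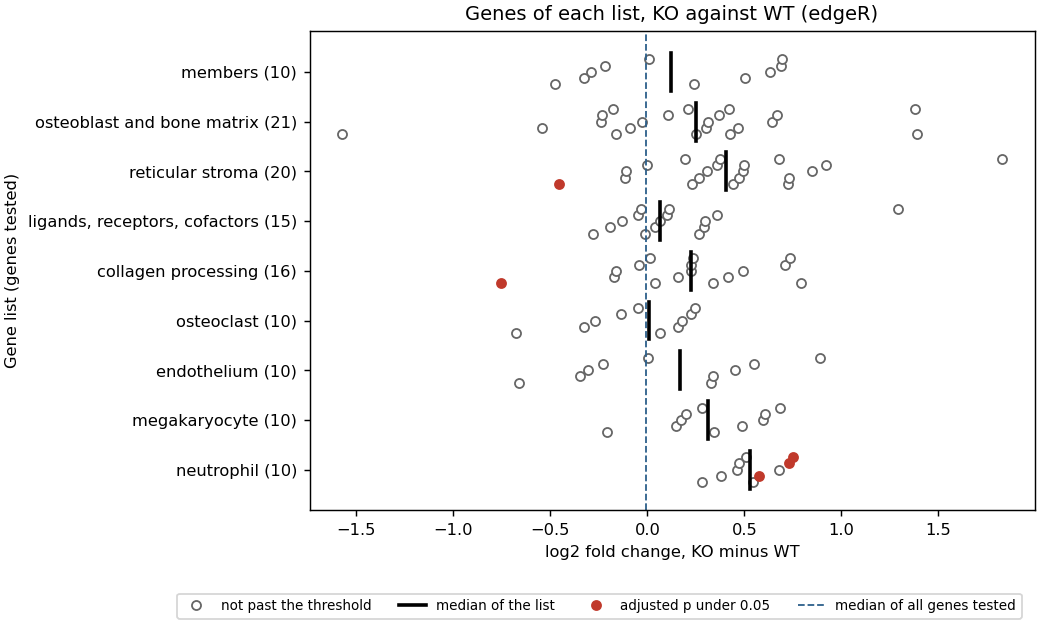
Log2 fold change, KO minus WT, of every tested gene of the lists (circles; filled red where the edgeR adjusted p is under 0.05), with the median of each list (black bar) and of all genes tested (dashed line at -0.01). The 10 genes (top row, "members") have no filled point; Eng and Mmp14 are the filled points among the stroma and collagen processing genes, and 3 neutrophil genes are filled on the right.

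Markers of other cells that the samples could hold were read beside these results. Osteoclast genes (10 of 14 tested) had a median of 0.01 with 0 called, and summed to between 3619 and 3684 CPM in KO and between 3410 and 3966 CPM in WT. Most of this sum was Mmp9, between 1968 and 2142 CPM in KO and between 1410 and 2315 CPM in WT, and Car2, between 1000.5 and 1192 CPM in KO and between 1132 and 1631 CPM in WT, which neutrophils and red cells also express. Ctsk, the osteoclast collagenase cathepsin K, had 8.35, 8.02 and 17.3 CPM in KO, against 15.3, 21.0 and 17.7 CPM in WT (log2 fold change -0.68, edgeR adjusted p = 0.238), and was called lower without KO replicate 4 (-1.13, adjusted p = 0.0447). Acp5, the osteoclast acid phosphatase that macrophages also express, had a log2 fold change of -0.33 (edgeR adjusted p = 0.128). Acp5 was called lower in edgeR without a filter on low counts (adjusted p = 0.0397). Endothelial genes (10 of 10) had a median of 0.17 with 0 called, Pecam1, an adhesion molecule that leukocytes also carry, having the smallest p (-0.31, adjusted p = 0.119). Megakaryocyte and platelet genes (10 of 10) had a median of 0.31 with 0 called, led by the platelet chemokine gene Pf4 (0.68, adjusted p = 0.331), and summed to between 266 and 566 CPM in KO and between 261 and 418 CPM in WT. Adipocyte genes (7 of 10) had a median of 0.23 with 0 called, and summed to between 73.7 and 90.4 CPM in KO and between 62.0 and 70.4 CPM in WT. Most of this sum was Lipe, between 42.4 and 42.9 CPM in KO and between 30.8 and 41.9 CPM in WT, and Fabp4. Fabp4 lay between 18.7 and 33.8 CPM in KO and between 13.2 and 20.9 CPM in WT. Plin1, Cidec and Lep had only 11, 16 and 2 counts over all 6 libraries and were not tested. Adipoq, the adipocyte hormone that reticular stroma also expresses, was at 0.59 (adjusted p = 0.183). Chondrocyte genes (4 of 10) had a median of -0.83 with 0 called and Ihh, a growth plate signal, at -1.45 (adjusted p = 0.137). Skeletal muscle genes (8 of 12) had a median of -1.02 and included Tnnt3, a troponin, past the threshold at -0.99 (adjusted p = 0.0473), a call lost whichever of the 6 libraries was left out (adjusted p between 0.0547 and 0.181). Tnnt3 lost its call with the Xist covariate too (0.0829). It kept the call in DESeq2 (adjusted p = 0.00705), in limma (0.0364) and in edgeR without a filter on low counts (0.011). Neutrophil genes (10 of 10) had a median of 0.53, with Elane, Camp and S100a8 past the threshold at 0.58, 0.73 and 0.75, all lost without KO replicate 4 or without either of WT replicates 1 and 4 (adjusted p between 0.112 and 0.162). Elane and Camp were also lost without WT replicate 3 (adjusted p = 0.0627 and 0.0546), and Camp without KO replicate 2 (adjusted p = 0.0573). With the Xist covariate 0 neutrophil genes were called (adjusted p = 0.0673 for Elane and 0.0815 for S100a8, with Camp just above the threshold). DESeq2 called 10 of the 10 neutrophil genes higher, against 11.4% of the genes that its filter left. Without a filter on low counts edgeR called 7, against 4.91% of genes, and limma called 5, against 4.64%. No gene of these lists was at 0 in all 6 libraries, and the part of these cells in the values of the 10 genes was not tested.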

How the data were processed

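Poly(A) selected RNA from 6 mouse bone marrow samples was profiled. Raw read counts per gene were deposited by the authors; the submitters' processing notes list GRCm38 as genome build and, as tools, Subread 1.5.2 with featureCounts, STAR 2.5.2b and Trimmomatic 0.36. The annotation release, strand setting and treatment of multiply matching reads are not stated in the labels or files. Symbols, exon lengths and 3′ UTRs were taken from GENCODE M21 (GRCm38) by gene identifier (49056 of 49315, the rest holding 0.0171% of counts).

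Counts were tested in edgeR 4.0.16 (R 4.3.3) with TMM scaling, filterByExpr, the robust quasi-likelihood test, two-sided, and Benjamini-Hochberg adjustment over 16956 genes with a threshold of 0.05. CPM values use TMM-scaled library totals, floors the totals alone. FPKM divides CPM by exon length. Alternatives were other scalings and filters, DESeq2 1.42.0, limma 3.58.1 (voom with sample quality weights), a replicate block, an Xist covariate and leaving out each library. All pairs of libraries differed by more than sampling noise.

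The 10 genes and all lists were chosen with earlier results of these data known. Named genes are the 10 genes, Bglap2 and Bglap3, up to 4 called genes of each list (or the gene with the smallest p) and the 5 patterns nearest to Col1a1 and to Kitl; Bgn, Dcn, Lum, Igfbp4, Cxcl12, Pcolce, Tnfsf11, Cbfb, Kit, Jak2, Stat3, Socs3, Siglech, Prrx1, Phospho1, Col6a1, Cd44, Mmp9, Car2, Ctsk, Sost, Mepe and Fgf23 were named for their roles after their values were seen. The presence of osteoblasts and stroma was checked with Sp7, Ifitm5, Dmp1, Cxcl12, Foxc1 and Ebf3. Lipe, Fabp4, Plin1, Cidec and Lep were also named after their values were seen.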

Additional observations from a re-analysis of the deposited data

How the results depend on the processing

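Over 14 alternatives, Sparc (0.22 to 0.80) and Kitl (0.34 to 1.0) kept their sign and stayed short of the threshold, and Runx2 (-0.40 to -0.25), Lepr (0.45 to 0.88) and Ibsp (0.39 to 0.90) kept their sign. Without a filter on low counts 1492 genes were called, with 2 of the 10 genes among them, Runx2 (-0.33) and Lepr (0.68), and 1, 3, 1 and 2 genes of the bone matrix, stroma, ligand and collagen processing lists. DESeq2, which replaces the count filter by its own, called 1577 genes (52.9% of them higher, against 38.1%), 2 of the 10, Ibsp (0.71) and Lepr (0.71), and 2, 4, 1 and 2 genes of those lists. limma with sample quality weights called 786 genes and 2 of the stroma list, with Bglap at 0.14 and Spp1 at -0.057. The Xist covariate left 209 genes and 0 of the stroma and collagen processing lists, with Col1a2 at -0.13 and Spp1 at -0.019. Library totals alone moved the median of all genes to -0.08, the share of higher calls to 17.8% and Col1a2 to -0.065. A mean log2 CPM of at least 1 put Col1a2 at -0.0083 and removed Bglap from the test.

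Replicate numbers 3 and 4 occur in both groups, but the deviations of same-numbered libraries correlated at 0.21 (the highest of 9 cross-group pairs, which also had the lowest chi-square per gene, 30.0) and -0.14. The numbers were therefore not taken to pair the samples. A replicate block gives KO replicate 2 and WT replicate 1 no partner, so its fold changes rest on 2 pairs with 1 residual degree of freedom. In it 571 genes were called, 2 of the 10, Ibsp (0.85, adjusted p = 0.00685) and Lepr (0.75, adjusted p = 0.0242), and 2, 3 and 2 genes of the bone matrix, stroma and collagen processing lists, with Col1a1 at 0.28 and Bglap at 0.076, and Eng (adjusted p = 0.0841), Elane, Camp and S100a8 (0.0615, 0.122 and 0.125) lost their calls. The median of the 10 was 0.59.

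Leaving out single libraries gave between 32 genes called (without KO replicate 4) and 920 (without KO replicate 3), with 33, 199 and 37 without WT replicates 1, 3 and 4, and 0 of the 10 genes in each. Ranges were -0.83 to 0.20 for Col1a1, -0.36 to 0.53 for Col1a2, -1.05 to 0.83 for Bglap, -0.42 to 0.52 for Spp1 and -0.71 to 0.043 for Alpl, and 0 to 1, 0 to 2 and 0 to 3 genes of the bone matrix, stroma and collagen processing lists were called. Causes were not tested. At this depth and with 3 libraries a group, the 95% intervals of Bglap, Spp1 and Col1a2 include changes of over 2-fold in either direction.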
